A study of Mus musculus with 8 samples.

Results

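The apolipoproteins described here are 10 genes, Apoa1, Apoa2, Apoa4, Apoa5, Apob, Apoc1, Apoc3, Apoe, Apoh and Apom, chosen by gene symbol from a table of 15210 genes. All 10 had a row and all 10 passed the filter for testing, which 12008 genes passed. RNA came from the livers of female F1-TKm30 mice, an immunodeficient NOG line. Both groups carry the HSVtk mutant clone 30 cDNA, a viral thymidine kinase transgene, driven by the enhancer and promoter of the mouse transthyretin gene. The control group (4 mice) received 0% and the other group (4 mice) 0.05% of 4,4'-Methylenebis(2-chlorobenzenamine), abbreviated MOCA, for 4 weeks. MOCA is an aromatic amine that serves as a curing agent for polyurethane. The mice were 17 or 21 weeks old, the labels do not say which mouse had which age, and 1 label names C57BL mice in place of the line. The names of the value columns begin with Wild, although the titles of all mice name F1-TKm30. The comparison asks which liver RNAs differ after MOCA. The sources used here give no route of treatment.

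Apolipoproteins are the proteins of lipoprotein particles, which carry cholesterol and triglycerides through the blood. The liver secretes very low density lipoprotein (VLDL) built on apolipoprotein B and makes most of the apolipoproteins of high density lipoprotein (HDL). Some members are structural, some are ligands for uptake receptors, and others activate or restrain lipoprotein lipase, the enzyme that frees fatty acids from the particles. The genes lie partly in clusters. On mm10 Apoa1, Apoc3, Apoa4 and Apoa5 follow each other on chromosome 9 with gaps of 2580, 5207 and 25149 bases, and Apoc1 and Apoe lie 3584 bases apart on chromosome 7.

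Promoter sequences are shown for the 2 genes whose groups did not overlap (Apob and Apoe) and the gene with the largest difference (Apoa4). They run from 250 bases before to 50 bases after a RefSeq start on GRCm38.p6, the mm10 assembly, on the strand of the gene. RefSeq windows were matched for 8 members; Apoc1 and Apoc3 were not matched. The Apob window is chr12:7977427-7977726 (plus strand), that of Apoe is chr7:19699139-19699438 (minus strand), and that of Apoa4 is chr9:46240594-46240893 (plus strand). Capitals mark matches to any of 5 motifs searched on both strands.
Apob: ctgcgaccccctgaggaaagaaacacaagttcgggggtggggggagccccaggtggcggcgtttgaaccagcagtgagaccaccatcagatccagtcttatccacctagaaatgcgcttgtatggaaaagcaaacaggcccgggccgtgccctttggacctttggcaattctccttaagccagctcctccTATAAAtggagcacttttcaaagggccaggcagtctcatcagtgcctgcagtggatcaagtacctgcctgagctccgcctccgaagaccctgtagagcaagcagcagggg
Apoe: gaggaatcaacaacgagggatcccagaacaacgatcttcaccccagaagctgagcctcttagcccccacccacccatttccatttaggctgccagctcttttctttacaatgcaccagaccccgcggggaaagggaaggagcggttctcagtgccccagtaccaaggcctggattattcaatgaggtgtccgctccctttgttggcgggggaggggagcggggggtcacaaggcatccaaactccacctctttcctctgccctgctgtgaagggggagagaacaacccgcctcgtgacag
Apoa4: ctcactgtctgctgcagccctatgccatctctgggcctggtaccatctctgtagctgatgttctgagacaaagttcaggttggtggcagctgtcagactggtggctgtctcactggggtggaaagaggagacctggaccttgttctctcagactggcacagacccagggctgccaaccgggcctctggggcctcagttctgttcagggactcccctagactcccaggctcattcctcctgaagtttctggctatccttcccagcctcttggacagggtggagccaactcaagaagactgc

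The motifs were the TATA box TATAAA, the GC box GGGCGG, the nuclear receptor motif AGGTCA, the longer CAAAGGTCA, which contains that motif, and CAAAGTCCA, both of the kind bound by HNF4 alpha. TATAAA was found in at least 1 window of Apob, Apoe, Apoa2 and Apoa5, and in 13.6% of the 32851 windows of this length. Apoe, Apoa2 and Apoa5 had more than 1 window, and the Apoa5 windows overlap and share the match. Counts by gene therefore cannot be set against shares by window. In the Apob window TATAAA begins 60 bases before the start of that window's transcript, which lies downstream of the gene start given below. The Apoe match lies in the window of a start further downstream, and the windows printed for Apoe and Apoa4 hold no match. AGGTCA was found for Apoa2 and Apoh (16.3% of all windows). No member window held GGGCGG, CAAAGGTCA or CAAAGTCCA, which 35.7%, 0.478% and 0.475% of all windows hold. A match describes letters in these windows and not a bound site.

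Values below are TMM-scaled CPM, that is counts relative to a library size that the authors scaled by TMM, given as mean ± SD over 4 mice. Libraries held 16077424 to 17101844 reads in control mice and 15024945 to 15970453 in MOCA mice, so each MOCA library was shallower than each control library. The members are deeply covered, with 1680 to 261486 reads per mouse. All 8 hepatocyte markers were present, and their summed level was 108903 to 128971 in control and 95079.7 to 109075 in MOCA livers, with 8 of 8 log2 fold changes negative and 0 called. The 5 T, B and NK cell markers had no row in the table. Of the other marker lists, 10 of 10 Kupffer cell and macrophage genes were present, with a summed level of 338 to 409 in control and 350.0 to 463 in MOCA livers and 9 of 10 log2 fold changes positive (median 0.13). The 5 blood markers, globin genes and Alas2, summed to 252 to 442 and 472 to 524 (4 of 4 tested positive, median 0.67), the 9 stellate cell and fibroblast markers to 650.0 to 717 and 538 to 663, and the 6 bile duct markers to 41.2 to 49.8 and 36.5 to 55.5. Of 5 small intestine markers 2 were listed, Fabp2 and Vil1, at a sum of 33.6 to 45.6 and 39.5 to 46.5. Their part in the results below was not tested, and in bulk liver fewer cells of a type and less RNA per cell cannot be told apart.

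None of the 10 members passed the test (limma, Benjamini-Hochberg adjusted p under 0.05), a call that 0.666% of the tested genes received (0.4% higher and 0.266% lower in MOCA livers). By limma 3 members had an unadjusted p under 0.05, Apoa4, Apoe and Apoa5, all with lower means in MOCA livers, as had 8.05% of the tested genes, against 9.42% with higher means. Of the 10, 9 had a negative log2 fold change, MOCA over control, against 48.9% of all tested genes and 56.6% of the genes with a mean of at least 100. The members' median was -0.18, beside 0.0051 for all tested genes and -0.023 for those with a mean of at least 100. The hepatocyte markers had a median of -0.11. The edgeR test called 0 members (0.683% of tested genes, 0.391% higher and 0.291% lower). DESeq2 called 2, Apob and Apoe, both lower, where it called 3.54% of tested genes, 1.85% higher and 1.69% lower. Apob and Apoe are also the 2 members whose 4 MOCA values all lay below all 4 control values, a pattern that 4.96% of tested genes showed, and 7.9% of those with a mean of at least 100. No member had all MOCA values higher (5.5% of tested genes, and 6.44% of those with a mean of at least 100).

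**Figure D1:**
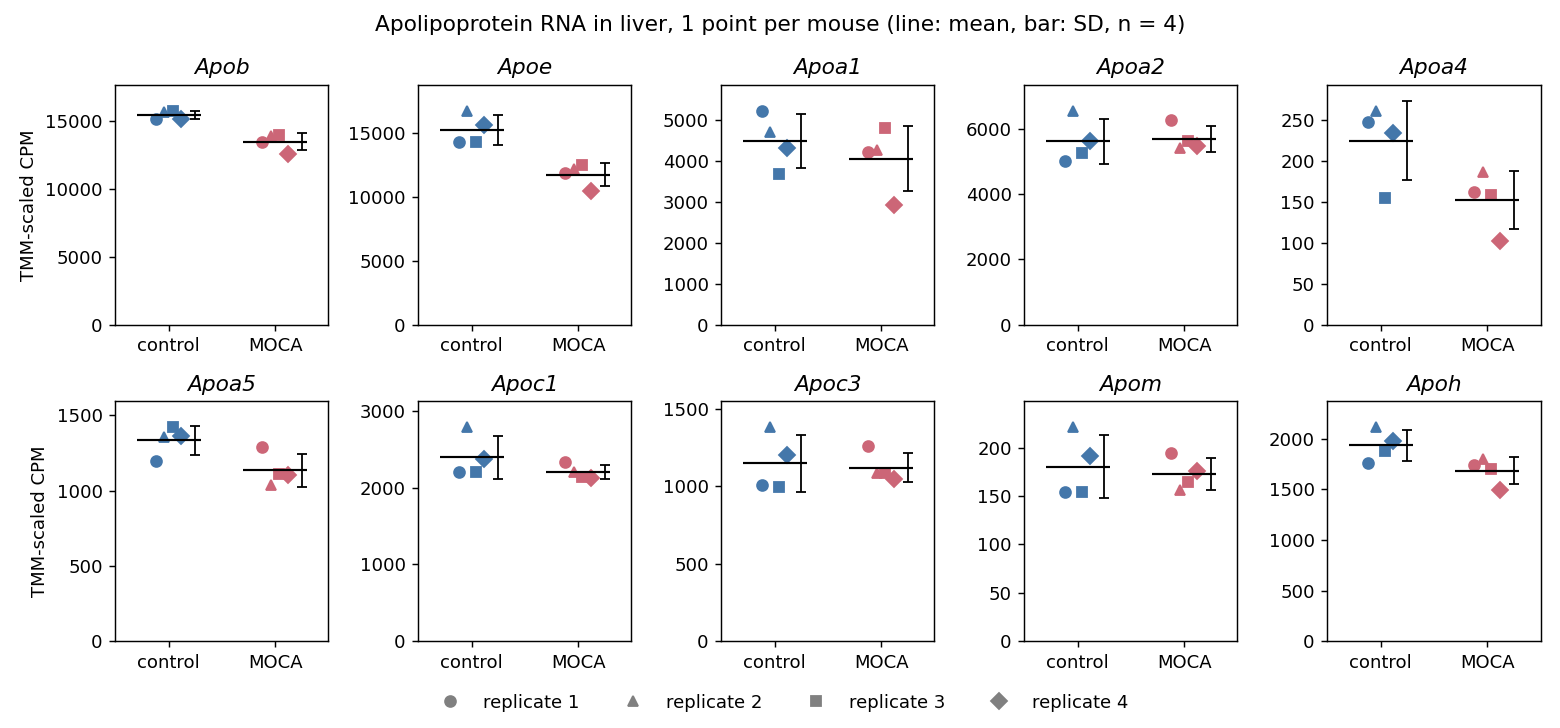
TMM-scaled CPM (y axes, starting at 0) of the 10 apolipoproteins in control and MOCA livers, with 1 point per mouse, the marker shape giving the replicate number, lines for means and bars for SD (n = 4). Apob and Apoe show separate groups, and the points of the other 8 genes overlap.

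Apoe and Apob, which coat the particles that the liver secretes and takes up again, were by far the most abundant members in reads. Apoe (chromosome 7, 19696244 to 19701310, minus strand), a ligand by which liver receptors such as LRP1 take up remnant particles, was at 14286, 16719, 14237 and 15560.3 in control mice and 11864, 12136, 12485 and 10407 in MOCA mice. The highest MOCA value thus lay below the lowest control value. The means were 15201 ± 1183 and 11723 ± 913, lower by 22.9%. The log2 fold change was -0.37 (SE 0.13, 95% interval -0.67 to -0.08, limma adjusted p = 0.194). The adjusted p was 0.117 with edgeR and 0.00168 with DESeq2. The unadjusted limma p was 0.0174, and it was 0.0649 without MOCA replicate 4, 0.0739 with no filter on low values and 0.0844 with the replicate block.

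Apob (chromosome 12, 7977629 to 8016839, plus strand) encodes the scaffold of VLDL and LDL. Its values were 15192, 15677, 15779.9 and 15172 in control mice and 13455, 13907, 13969 and 12606 in MOCA mice. The groups were apart here as well, and the coefficient of variation was 2.06% in control livers, the lowest of the members, and 4.66% in MOCA livers. The means were 15455 ± 318 and 13485 ± 629, lower by 12.8%. The log2 fold change was -0.20 (SE 0.13, 95% interval -0.48 to 0.08, limma adjusted p = 0.455), with an adjusted p of 0.297 by edgeR and 0.0395 by DESeq2.

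For both genes the limma test used a larger spread than their own mice showed, because it moderates each gene toward others of like abundance. The within-group SD of log2 values was 0.053 for Apob and 0.11 for Apoe, and the SD used in the test was 0.18 and 0.19. Without the abundance trend in that step the unadjusted p was 0.0192 for Apob and 0.00185 for Apoe, and the adjusted p 0.213 and 0.0987. Apoe and Apob together made up 64.0% ± 1.24 of the summed value of the 10 members in control livers and 60.9% ± 1.16 in MOCA livers. The ratio of Apoe to Apob within a mouse does not depend on library scaling. It was 0.902 to 1.07 in control and 0.826 to 0.894 in MOCA mice, without overlap but with a narrow gap. The ratio of Apoa4 to Apoa1 was 0.0420 to 0.0555 in control and 0.0331 to 0.0437 in MOCA mice, which overlap. Both ratios were chosen after the values were seen and carry no test.

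**Figure D2:**
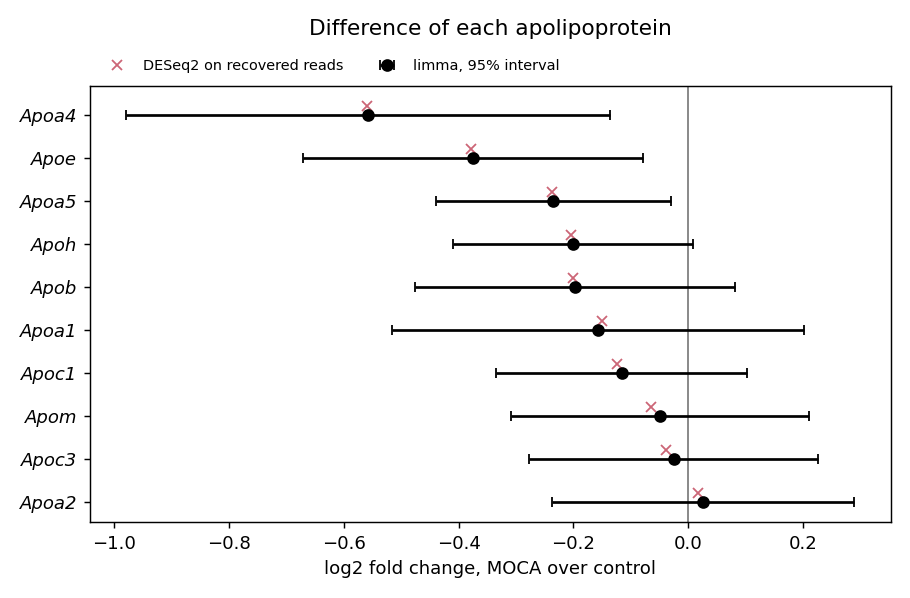
Log2 fold change, MOCA over control (x axis), of the 10 apolipoproteins by limma with the 95% interval (black) and by DESeq2 on the recovered reads (crosses). The limma intervals of Apoa4, Apoe and Apoa5 lie below 0 before adjustment over all genes, and no member passes after it.

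The structural proteins of HDL differed little in mean, with wide intervals. Apoa1 (chromosome 9, 46228630 to 46230469, plus strand), the main HDL protein and activator of the enzyme LCAT, was at 5224, 4704, 3669 and 4320.0 in control mice and 4210.4, 4266, 4789 and 2925 in MOCA mice. The groups overlapped, and MOCA replicate 4 was the lowest of all 8 mice. The means were 4479 ± 655 and 4048 ± 793 (log2 fold change -0.16, SE 0.16, 95% interval -0.52 to 0.20, adjusted p = 0.657). The log2 fold change was -0.0091 without MOCA replicate 4, -0.080 without control replicate 1, -0.25 without control replicate 3 or MOCA replicate 3, and -0.10 with equal column sums.

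Apoa2 (chromosome 1, 171221564 to 171226379, plus strand), another main protein of HDL, was at 5009, 6558, 5270.3 and 5621 in control mice and 6286, 5407, 5629 and 5465 in MOCA mice. All 4 MOCA values lay within the control range. The means were 5615 ± 677 and 5697 ± 404, a log2 fold change of 0.026 (SE 0.12, 95% interval -0.24 to 0.29, adjusted p = 0.934), the only positive one among the members. Its sign turned without control replicate 1, control replicate 3 or MOCA replicate 1.

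Apom (chromosome 17, 35128997 to 35131801, minus strand), the HDL carrier of sphingosine-1-phosphate, was at 155, 221, 154 and 191 in control mice and 194, 156, 165 and 176 in MOCA mice. Again the MOCA values fell inside the control range, with means of 180.2 ± 32.3 and 173 ± 16.4 and an interval of -0.31 to 0.21 around a log2 fold change of -0.049 (adjusted p = 0.87). The sign turned with columns scaled to equal sums and without control replicate 2.

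Apoa4, which is carried on HDL and on triglyceride-rich particles, had the largest difference of the members. Its values (chromosome 9, 46240844 to 46243458, plus strand) were 248, 261, 154 and 234 in control mice and 162, 186, 159 and 103 in MOCA mice. All MOCA mice were below 3 of the control mice, but control replicate 3 lay among them. The means were 224 ± 48.0 and 152 ± 35.4, lower by 32.0% (log2 fold change -0.56, SE 0.19, 95% interval -0.98 to -0.14, adjusted p = 0.178). Without control replicate 3 the log2 fold change was -0.73 and without MOCA replicate 4 it was -0.38, with adjusted p of 0.154 and 0.325. Apoa4 also varied most over the 8 mice, with an SD of 0.45 on the log2 scale, followed by Apoa1 with 0.26.

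By the smallest root mean square difference of centred log2 values over the 8 mice, the genes with profiles nearest to Apoa4 were Serpina11, a serpin (0.19), Gm5424 (0.20) and the class I histocompatibility gene H2-Q9 (0.22). Serpina11 had means of 224 ± 28.1 and 164 ± 35.1 (adjusted p = 0.153). Gm5424 had means of 1819 ± 274 and 1058 ± 241, and its adjusted p was 0.053. It was called with the other 3 scalings, robust eBayes, DESeq2 and without MOCA replicate 2. Nearest to Apoa1 were Safb, Glt28d2 and Slc13a3, a dicarboxylate transporter, at 0.093, 0.098 and 0.099. All 3 were lowest in MOCA replicate 4 like Apoa1, at 30.7, 7.88 and 20.2. The selection fixes this likeness, so it is a description with no test.

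Of the members that act on lipoprotein lipase and particle uptake, the activator Apoa5 and the inhibitors Apoc1 and Apoc3 all had a negative log2 fold change and none was called. Apoa5 (chromosome 9, 46268608 to 46271921, plus strand) was at 1197, 1358, 1421 and 1365 in control mice and 1292, 1036, 1111 and 1105 in MOCA mice. In MOCA mice 3 values lay below the lowest control value, and MOCA replicate 1 lay within the control range. The means were 1335 ± 96.5 and 1136 ± 109.7, lower by 14.9% (log2 fold change -0.23, SE 0.09, 95% interval -0.44 to -0.03, adjusted p = 0.232). The unadjusted limma p was 0.0284. It was 0.0514 to 0.092 when control replicate 2, 3 or 4 or MOCA replicate 2, 3 or 4 was left out, and 0.0689 with the replicate block.

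Apoc3 (chromosome 9, 46233050 to 46235636, minus strand), which inhibits the lipase and slows remnant uptake, was at 1006, 1382, 998 and 1205 in control mice. In MOCA mice it was at 1259.6, 1088, 1086 and 1047, all within the control range. The log2 fold change was -0.025 (SE 0.12, 95% interval -0.28 to 0.23, adjusted p = 0.932), and its sign turned with equal column sums and without control replicate 2, control replicate 4 or MOCA replicate 4.

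Apoc1 (chromosome 7, 19689480 to 19692659, minus strand), which restrains the uptake of particles, was at 2199, 2787, 2209.8 and 2376 in control mice. The MOCA mice had 2327, 2207, 2138 and 2125, which overlap the control values. The means were 2393 ± 275 and 2199.5 ± 92.5 (log2 fold change -0.12, SE 0.10, 95% interval -0.33 to 0.10, adjusted p = 0.59). The log2 fold change was -0.040 without control replicate 2 and -0.062 with equal column sums. The ratio of Apoc1 to its neighbour Apoe was 0.154, 0.167, 0.155 and 0.153 in control mice and 0.196, 0.182, 0.171 and 0.204 in MOCA mice, without overlap. These ratios were chosen after the values were seen and carry no test.

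Apoh (chromosome 11, 108395297 to 108414396, plus strand) encodes beta-2-glycoprotein I, a plasma protein that binds anionic phospholipids. It was at 1760.5, 2112, 1879 and 1976 in control mice and 1738, 1798, 1698 and 1489 in MOCA mice. Here 3 of 4 MOCA values lay below the lowest control value. The means were 1932 ± 149 and 1681 ± 134, lower by 13.0% (log2 fold change -0.20, SE 0.10, 95% interval -0.41 to 0.01, adjusted p = 0.304). Apoh overlaps Prkca on the opposite strand, and Apoa4 and Apoa5 overlap antisense genes with no row in the table. Whether reads were counted by strand is not stated in the sources used here, so reads of such pairs may not be separated. Prkca itself had a value of 15.3 ± 1.67 in control and 17.2 ± 3.23 in MOCA livers.

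Levels can be compared between genes only per length, here as TMM-scaled CPM per kilobase of the longest principal GENCODE transcript. In control livers Apoa2 (10839 ± 1307) and Apoe (10796 ± 840.3) stood highest, with overlapping ranges. Apoc1 (4498 ± 517) and Apoa1 (4328 ± 633) followed, again overlapping. The order went on with Apoc3 (2182 ± 348), Apoh (1623 ± 125), Apob (1109 ± 22.8), Apoa5 (531 ± 38.4), Apom (178 ± 31.9) and Apoa4 (123 ± 26.5), and each of these had a range apart from the next. Per kilobase Apob, with 13934 spliced bases, thus ranked seventh although it gave the most reads. The order was the same in MOCA livers, where Apoa2 (10998 ± 779) and Apoe (8326 ± 649) no longer overlapped. Of the members' summed level per kilobase, Apoe took 29.1% to 30.3% in control and 24.3% to 26.5% in MOCA livers. Apoa2 took 28.2% to 31.1% and 32.0% to 35.7%. Shares of one total are tied together, so a lower share of Apoe raises others, and the level of Apoa2 itself hardly differed. The shares of all other members overlapped between the groups.

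**Figure D3:**
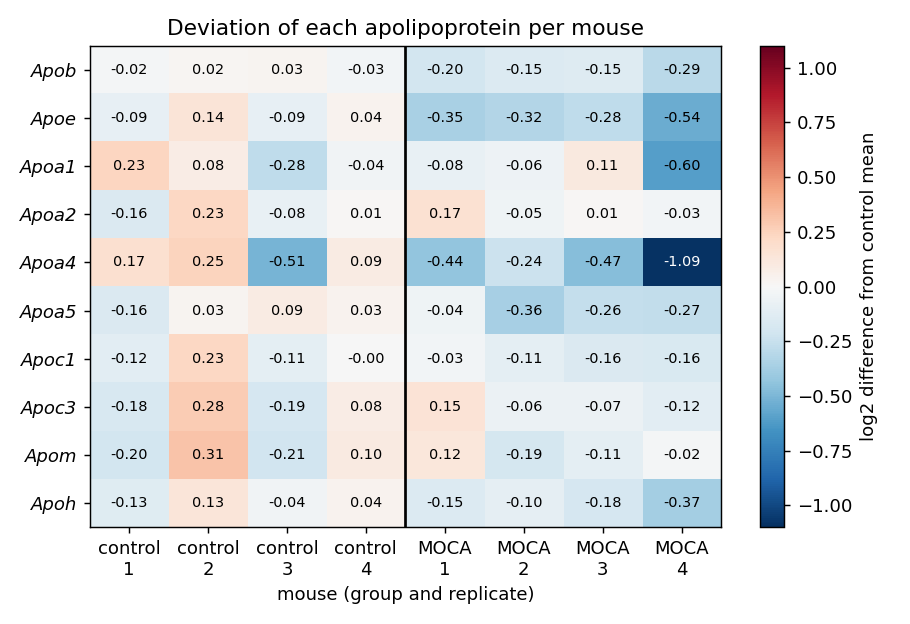
Log2 difference of each apolipoprotein (rows) from its control mean in each of the 8 mice (columns), blue for lower and red for higher values. Apoe, Apob, Apoa4, Apoa5, Apoc1 and Apoh are below their control mean in all 4 MOCA columns, and MOCA replicate 4 holds the lowest value of the figure, that of Apoa4 (-1.09).

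Single mice stood out across members. Control replicate 2 had the highest value of all 8 mice for 7 of the 10 members and was above the control mean for all 10. MOCA replicate 4 had the lowest value for 6 members and was below the control mean for all 10, as was MOCA replicate 2. The hepatocyte marker Alb, which is not a member, was also highest in control replicate 2 and lowest in MOCA replicate 4 (75231 and 57169). The same held for the sum of scaled values over all genes (1072797 and 950040). That sum is set by the TMM factor of each library and includes the members. It therefore does not show whether genes in general shared the pattern. The median deviation over the members was 0.18 on the log2 scale in control replicate 2, -0.12, -0.10 and 0.035 in control replicates 1, 3 and 4, and -0.061, -0.13, -0.15 and -0.28 in MOCA replicates 1, 2, 3 and 4. The sum of the 10 members took 4.61% to 4.83% of the reads in control libraries and 3.94% to 4.36% in MOCA libraries. Without Apob and Apoe the summed value was 15755 to 19383 in control and 14436 to 17469.6 in MOCA livers, which overlap.

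The other genes of lipoprotein metabolism were read from 6 lists with 100 listed and 96 tested genes. None was called by limma, and 21 had an unadjusted p under 0.05, where 9.42% of all tested genes had one with a higher and 8.05% with a lower mean. Of the 96, 1 was called by edgeR and 8 by DESeq2, against 0.683% and 3.54% of all tested genes. A negative log2 fold change was found for 62 (median -0.067). The share was 48.9% of all tested genes and 56.6% of those with a mean of at least 100. In these lists 10 genes had all MOCA values below all control values and 2 had them above. The shares were 4.96% and 5.5% of all tested genes, and 7.9% and 6.44% of those with a mean of at least 100. The lists hold genes above and below that mean, so neither background matches them exactly.

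Of 18 tested genes of VLDL assembly, 0 were called and 9 had a negative log2 fold change (median 0.0022). Mttp, the transfer protein that loads lipid onto apolipoprotein B, was at 418 ± 31.2 in control and 427 ± 40.0 after MOCA (adjusted p = 0.906), and its sign turned without control replicate 3 or MOCA replicate 1. Apobec1, the deaminase that edits the Apob transcript, was at 15.6, 15.9, 13.0 and 13.3 in control mice and 20.2, 16.4, 17.2 and 16.2 in MOCA mice, which do not overlap (adjusted p = 0.22). Soat2, which esterifies cholesterol for the particle core, was at 35.3 ± 1.75 and 28.2 ± 0.614 with no overlap (adjusted p = 0.0619). It was called with sample weights and by DESeq2. Sort1, the sorting receptor sortilin, was at 21.9 ± 2.09 and 15.5 ± 3.67, and Sar1b, a GTPase of particle export, at 129 ± 16.6 and 164 ± 14.4 (adjusted p = 0.125 and 0.119). DESeq2 called both, and Sar1b was also called with equal column sums. It further called Ces1g, a carboxylesterase, at 149 ± 38.6 and 244 ± 64.3 (limma adjusted p = 0.128), named after its values were seen.

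Among 12 tested genes of HDL formation and remodelling 0 were called by limma, 11 had a negative log2 fold change and the median was -0.24. The positive one was Pltp, with means of 38.3 ± 10.6 and 51.0 ± 20.8, named after its values were seen. Scarb1, the HDL receptor SR-BI, was at 239.7, 285, 307 and 287 in control mice and 221, 212, 197 and 179 in MOCA mice. Every MOCA value lay below every control value, and the log2 fold change was -0.46 (SE 0.09, adjusted p = 0.0517). Scarb1 was called in 8 of 21 alternatives, among them edgeR (0.0474) and DESeq2 (0.000487). Gpld1, an HDL-associated phospholipase, was at 339.6 ± 26.2 and 276 ± 15.3 without overlap (adjusted p = 0.0984), and DESeq2 called it. Lcat, the enzyme that Apoa1 activates, was at 563 ± 56.2 and 462 ± 41.9 (adjusted p = 0.167), and Abca1, which loads lipid onto Apoa1, at 401 ± 22.8 and 382 ± 18.8 (adjusted p = 0.663).

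The 15 tested genes of lipoprotein uptake held no call, with 10 negative log2 fold changes and a median of -0.085. Lrp1, the remnant receptor that binds Apoe, was at 2457, 2349, 2392 and 2495 in control mice and 2021, 2019.9, 1952 and 1910.5 in MOCA mice. The groups did not overlap (log2 fold change -0.29, SE 0.08, adjusted p = 0.111), and DESeq2 called the gene (5.62e-05). Mylip, a ubiquitin ligase, was at 14.5 ± 1.28 and 9.29 ± 1.84 without overlap (log2 fold change -0.60, SE 0.12, adjusted p = 0.0578). It was called by robust eBayes, by DESeq2 and without MOCA replicate 2. Stab2, a scavenger receptor of sinusoidal endothelium, was at 154 ± 14.6 and 129 ± 1.98 without overlap (adjusted p = 0.138). The 7 sinusoidal endothelial markers had a summed level of 385 to 457 in control and 368 to 388 in MOCA livers. They include Stab2, so this sum is not separate from it. Of these markers 6 had a negative and 1 a positive log2 fold change (median -0.13), and 0 were called. The fourth gene of the list without overlap was Stab1, at 122 ± 4.10 and 115 ± 0.594 (adjusted p = 0.483), named after its values were seen.

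Genes that control lipoprotein lipase (11 tested, median -0.030) and the remaining apolipoproteins and HDL proteins (13 tested, median -0.038) also held no call. Angptl6 was at 14.6 ± 0.522 and 11.8 ± 0.756 without overlap (adjusted p = 0.123). Gpihbp1, which anchors the lipase in capillaries, was at 9.26 ± 0.484 and 7.52 ± 1.04 (adjusted p = 0.214), and Pcsk6, a proprotein convertase, at 218 ± 14.4 and 197 ± 17.1 (adjusted p = 0.375). Lpl itself was at 13.4 ± 1.91 and 15.3 ± 4.59 (adjusted p = 0.758). Clu, apolipoprotein J, was at 1319 ± 159 and 1125 ± 55.1 (adjusted p = 0.275), Apol7a at 43.3 ± 5.35 and 59.0 ± 15.0 (adjusted p = 0.224), and the acute phase HDL protein Saa2 at 12.6 ± 4.34 and 9.002 ± 6.02 (adjusted p = 0.429).

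Of 27 tested regulators of apolipoprotein genes 0 were called and the median was -0.080. Hnf4a, a nuclear receptor that drives many of these genes in hepatocytes, was at 869, 931, 1080.5 and 1029 in control mice and 1006, 830.1, 928 and 663 in MOCA mice. The groups overlapped (log2 fold change -0.20, SE 0.13, adjusted p = 0.442), and MOCA replicate 4, the mouse with the lowest value of 6 members, had the lowest value here too. Without that mouse the log2 fold change was -0.084. Foxa3, a liver forkhead factor, was likewise lowest in that mouse (28.8 against 47.9 to 57.0 in the other MOCA mice, adjusted p = 0.273), and its log2 fold change was -0.37, or -0.17 without that mouse. Esr1, the estrogen receptor, was at 53.2 ± 2.87 and 64.2 ± 8.02, with every MOCA value higher (adjusted p = 0.185). Nr1h2, the sterol sensor LXR beta, was at 39.1 ± 1.67 and 34.4 ± 2.74, with every MOCA value lower (adjusted p = 0.249).

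**Figure D4:**
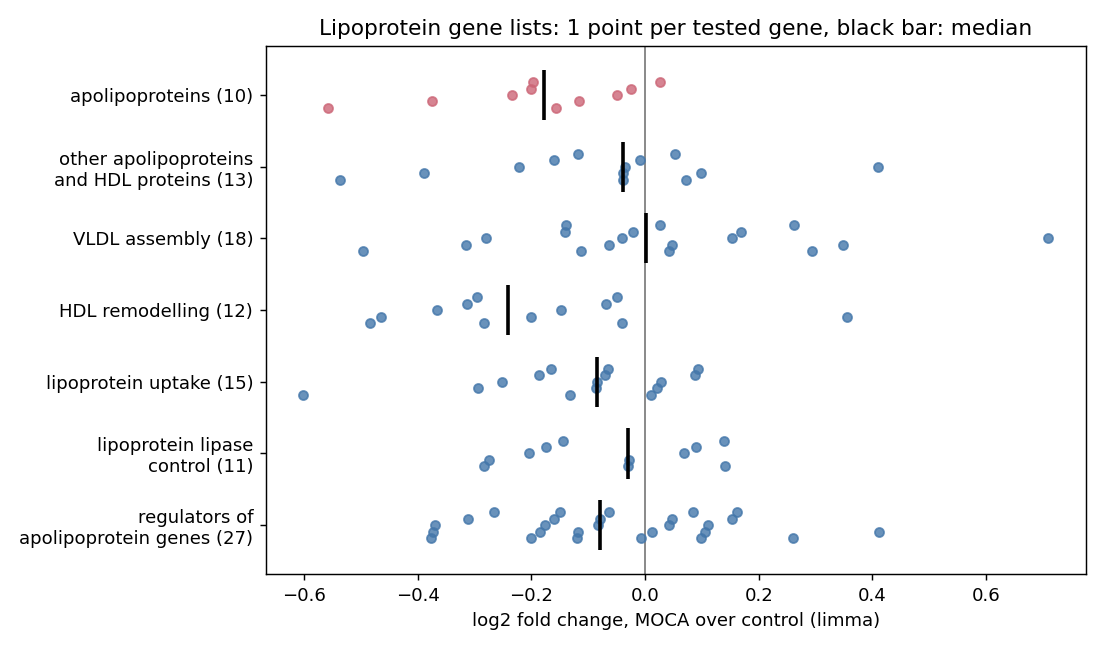
Log2 fold change, MOCA over control, by limma (x axis) of the tested genes of 7 lists (rows, number of tested genes in brackets), with 1 point per gene and a black bar for the median. The members and the genes of HDL remodelling have the lowest medians (-0.18 and -0.24).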

How the data were processed

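Per the labels' protocols, RNA was isolated with the RNeasy Mini Kit, and libraries came from MGIEasy rRNA depletion and strand-preserving MGIEasy preparation kits. The submitters' processing notes name Trimmomatic 0.38, Bowtie2, RSEM, edgeR and mm10, with no role or order. The authors deposited 1 table of normalised counts, a scaled signal for each gene. In each column 100% of values were whole multiples of the worth of 1 read (tolerance 0.001), which gave back the reads, and the values equal TMM-scaled CPM recomputed with edgeR.

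The test was limma 3.58.1 (R 4.3.3) on log2(value + 1), with eBayes and trend, MOCA against control, for genes with at least 1 in 4 or more libraries. Fold changes on this scale understate low genes. Alternatives were pseudocounts of 0.25 and 4, other filters, 3 scalings, eBayes settings, sample weights, the replicate number as a block, each mouse left out in turn, adjusted p under 0.01, edgeR 4.0.16 and DESeq2 1.42.0 on recovered reads. The background for genes with a mean of at least 100 was added after the data were seen.

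The members and lists were chosen with earlier results of these data known. Named genes are the members, up to 3 genes with the smallest p per list, 10 further genes of lipoprotein metabolism whatever their change, and the 3 nearest profiles of the 2 most variable members. Some genes that this rule names are not reported here. The labels number the mice but name no cage or batch. P-values weigh a difference of group means against the spread between mice, which limma moderates toward genes of like abundance. Replicates of a group differed by more than counting noise (chi-square over degrees of freedom 12.5 to 26.9), so none was merged. Gene positions and promoters are from RefSeq (GRCm38.p6), and strands, overlaps and spliced lengths from GENCODE (GRCm38).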

Additional observations from a re-analysis of the deposited data

Results flagged for a closer look

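Among 78 groups of 4 mice examined (the named genes in both groups), 3 held 1 mouse far from the others, where chance gives about 1 in 20 groups. No apolipoprotein of the 10 was among them. Saa2 was at 18.0 in MOCA replicate 2, against 5.12 to 6.49 in the other MOCA mice. Angptl6 was at 15.3 in control replicate 2, against 14.2 to 14.4 in the other control mice. H2-Q9 was at 12.2 in MOCA replicate 2, against 8.25 to 8.78 in the other MOCA mice.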

How the results depend on the processing

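No member was called under any limma setting or by edgeR. The threshold of 0.01 was applied to the main limma fit, so with 0 members called at 0.05 it could call none. DESeq2 called 2, Apob and Apoe, and the cause was not tested. Of 210 values of the members under alternatives, 199 kept direction and side of the threshold, 2 crossed it and 9 turned sign. Leaving out each mouse gave 0 members called. Apoa2 turned to -0.026, -0.0020 and -0.022 without control replicates 1 and 3 and MOCA replicate 1 (-0.026 to 0.10 over mice left out). Apoc3 turned to 0.028 with equal column sums and to 0.068, 0.0025 and 0.0059 without control replicates 2 and 4 and MOCA replicate 4 (-0.088 to 0.068). Apom turned to 0.0044 with equal column sums and 0.055 without control replicate 2 (-0.12 to 0.055). With equal column sums 7 members were negative and the median of all genes moved by 0.048. Members at an unadjusted p under 0.05 numbered 3, with 5 by robust eBayes or DESeq2, 4 by edgeR, eBayes without trend, upper quartile scaling or without control replicate 1, and 1 without MOCA replicate 4 or with the replicate block. The other settings gave 2 or 3.

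Of the 96 other lipoprotein genes 0 were called by the main test. Calls numbered 2 with equal column sums, robust eBayes or sample weights, 1 with median of ratios or upper quartile scaling or edgeR, and 8 with DESeq2. Leaving out a mouse gave 0 to 1, Scarb1 without control replicate 1 and Mylip without MOCA replicate 2. With 1 mouse left out, log2 fold changes that turned sign ran from -0.034 to 0.072 for Mttp, -0.18 to 0.0044 for Safb and -0.12 to 0.066 for Glt28d2. Glt28d2 also turned to 0.0057 with equal column sums.

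Over all genes 80 were called, 48 higher and 32 lower. The split was 131 and 38 with equal column sums and 45 and 51 with upper quartile scaling. Calls numbered 425 with DESeq2, 13 at an adjusted p under 0.01, 30 with the replicate block and 29 to 77 without 1 mouse. Deviations of same-numbered mice correlated at -0.074 to 0.036, and for 0 of 4 control mice was the same-numbered MOCA mouse the best match. Whether such mice shared a cage or batch is not given by the labels and was not tested. With that replicate block 0 members and 0 of the other lipoprotein genes were called.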
